A study of Mus musculus with 12 samples.

Results

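Sorted Schwann cells (SCs) of the postnatal day 5 mouse sciatic nerve were examined for 8 genes of transcription regulators that act around the promyelin stage: Pou3f1, Pou3f2, Sox10, Zeb2, Yy1, Nfatc3, Nfatc4 and Ski. They were chosen by symbol, each matched 1 identifier of the mouse annotation, and they are 8 of the 25700 genes listed in the count data. All 8 passed the filter on low counts, which kept 18597 genes.

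An SC that has picked a single axon leaves the cell cycle, arrests for a short time as a promyelin cell and then wraps the axon. Sox10 sets the lineage and opens the way for Pou3f1 (also called Oct6 or SCIP) and its close relative Pou3f2 (Brn2), and these factors together switch on Egr2 (Krox20), which with Sox10 drives the myelin genes. Around this sequence, Zeb2 holds down inhibitors of myelination, Yy1 relays neuregulin signals to the Egr2 gene, the calcineurin-dependent factors Nfatc3 and Nfatc4 work with Sox10, and the corepressor Ski is tied to TGF-beta signalling and the cessation of proliferation.

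All groups came from C57bl/6J mice that carried a Cre transgene active in the SC lineage, a Cre-dependent eYFP reporter (ReYFP Tg/+) and a dsRed reporter active in every cell (βAct-DsRed Tg/+). There was no other genotype and no treatment. From the nerve suspensions of 4 mice, numbered as subjects in the labels, eYFP-positive cells were sorted by fluorescence-activated cell sorting into 3 gates. The allSC gate took all eYFP-positive cells, the mSC gate those with high side scatter (granularity), enriched in myelinating SCs, and the nmSC gate those with low side scatter, enriched in SCs that were not myelinating. The gates are enrichments, the allSC gate spans both others, and eYFP marks any cell in which the Cre was once active. Each gate had 4 libraries, numbered by mouse, made with Smart-Seq2, a protocol that does not keep the strand. The deposited values are read counts per gene, with 8180927 to 16918122 counts per library. They are given here as CPM after TMM scaling, which divides counts by the library total multiplied by a factor fitted to the bulk of the genes. The factors were 0.744 to 0.871 in mSC and 1.16 to 1.28 in nmSC libraries. Where genes are compared with each other, CPM is given per kilobase of the union of their exons (RPKM).

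The gates differed as their names say. All 14 of 14 myelin genes listed were higher in mSC (summed level 177458 to 235735 CPM, against 24996 to 28208 CPM in nmSC), and 6 of 6 proliferation genes and 3 of 3 immature SC genes were lower in mSC, where the proliferation genes summed to 69.9 to 124 CPM, against 922 to 1219 CPM in nmSC. Markers of other cell types were present at several levels. The 5 immune markers summed to 13.6 to 30.8 CPM over all libraries and the 6 fibroblast-like markers to 15.2 to 47.6 CPM, and of the immune markers Aif1 had a count of 0 in all 4 mSC libraries while Csf1r stood at 11.5 CPM in mSC and 11.6 CPM in nmSC. The 5 pericyte and vascular smooth muscle markers summed to 74.7 to 196 CPM, mainly Pdgfrb. The 4 perineurial markers summed to 137 to 339 CPM, mainly Itgb4, a sum above the levels of most of the 8 genes. The lowest of them, Msln, stood at 0.583 CPM in mSC and 1.07 CPM in nmSC. The 5 melanocyte markers were at 141 to 155 CPM in mSC and 39.7 to 49.99 CPM in nmSC, mainly Pmel, and the 5 endothelial markers at 20.4 to 29.6 CPM and 8.18 to 13.4 CPM, mainly Kdr. The lists did not move as a whole. Of the 4 melanocyte markers tested, 2 were higher in mSC, 1 was lower and 1 was not called. Of the 4 endothelial markers tested, 1 (Kdr) was higher, 2 were lower and 1 was not called. The 4 perineurial markers were also split, with 1 higher in mSC, 2 lower, among them Itgb4 (log2 -0.69), and 1 not called. The part of these cell types in the results was not tested. The 50 genes with the most counts took 26.9% to 31.6% of the counts of mSC libraries and 17.9% to 18.9% of nmSC libraries, and the scale chosen between gates matters below. In bulk samples, fewer cells of a type and less RNA per cell cannot be told apart.

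Pou3f2, Zeb2 and Nfatc4 were lower in mSC, and the other 5 (Pou3f1, Sox10, Yy1, Nfatc3 and Ski) did not pass the threshold. Thus 3 of 8 were called, all 3 lower in mSC, by the quasi-likelihood test of edgeR with Benjamini-Hochberg adjusted p under 0.05, where 40.5% of all tested genes were called in either direction, 20.2% lower in mSC and 20.4% higher. The median log2 fold change of the 8 genes, mSC minus nmSC, was -0.23, beside -0.16 for all tested genes. In the same 4 mice, mSC was below nmSC for all 3 genes called. Of these, Nfatc4 passed the filter on low counts only through its nmSC and allSC libraries.

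**Figure D1:**
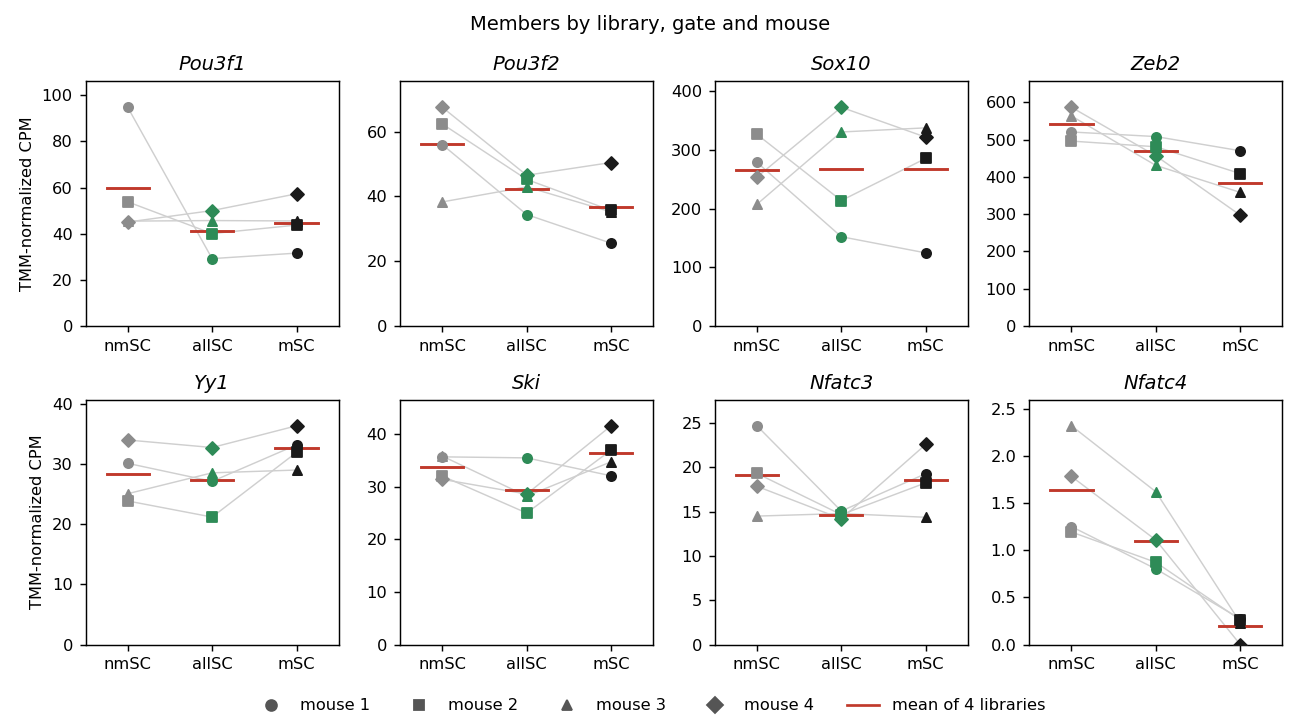
TMM-normalized CPM (vertical axes, each from 0) of the 8 genes in the nmSC, allSC and mSC gates (horizontal axes), with 1 symbol per library, symbol shape and grey lines for the mouse, and red bars for the mean of 4 libraries. The mSC and nmSC libraries of Zeb2 and Nfatc4 do not overlap, those of Pou3f2 overlap through mouse 3 in nmSC and mouse 4 in mSC, and 1 nmSC library of Pou3f1 lies at 94.8 CPM.

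The POU factors come first in the sequence. Pou3f1 (chr4:124656807-124660655, plus strand, GRCm38) and Pou3f2 (chr4:22482780-22488366, minus strand) are both genes of 1 exon on the same chromosome. Their coding sequences (1350 and 1338 bases) share a segment of 468 bases with 82.3% identity, in the region that encodes the DNA-binding POU domain, which bears on whether reads could be assigned to the wrong gene. The 150 bases of that segment that are most alike are shown here 5′ to 3′ on the coding strand, in lower case where the genes are identical and in capitals at the 18 bases where they differ (132 of 150 bases identical, 88.0%), at chr4:124658520-124658669 for Pou3f1 and chr4:22487112-22487261 for Pou3f2.
Pou3f1: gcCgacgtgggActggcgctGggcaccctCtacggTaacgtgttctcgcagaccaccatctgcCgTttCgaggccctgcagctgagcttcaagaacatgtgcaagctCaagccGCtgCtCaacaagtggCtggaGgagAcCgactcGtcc
Pou3f2: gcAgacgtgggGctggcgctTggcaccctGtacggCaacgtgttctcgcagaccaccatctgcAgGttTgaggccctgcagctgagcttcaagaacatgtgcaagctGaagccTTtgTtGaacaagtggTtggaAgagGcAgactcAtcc
The longest run that the transcripts share without a difference was 38 bases, and 0 runs as long as a read were shared, so a full read with no errors could be assigned to 1 of the genes. An annotated antisense gene, Gm2164, overlaps 8.57% of the Pou3f1 exon, and reads from it cannot be told from those of Pou3f1 in libraries that do not keep the strand.

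Pou3f1, the classic marker of the promyelin stage, was measured at 94.8, 53.8, 45.5 and 45.1 CPM in nmSC from mouse 1 to mouse 4, at 31.6, 43.7, 45.5 and 57.3 CPM in mSC, and at 29.2, 40.1, 45.7 and 50.04 CPM in allSC. Mouse 1 held both the highest nmSC library and the lowest libraries of the other gates, and mSC lay above nmSC in mouse 3 and mouse 4. The log2 fold change, mSC minus nmSC, was -0.43 (SE 0.230, edgeR adjusted p = 0.145). Without nmSC replicate 1 it was -0.11 (adjusted p = 0.681), and without mSC replicate 4 it was -0.56 (adjusted p = 0.0498), so single libraries decided its size and its call.

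Pou3f2 acts beside Pou3f1 and can stand in for part of its function. Its nmSC libraries held 56.0, 62.3, 38.3 and 67.5 CPM, its mSC libraries 25.5, 35.7, 35.2 and 50.4 CPM, and its allSC libraries 34.4, 45.2, 42.9 and 46.5 CPM. Every mouse had less Pou3f2 in mSC than in nmSC, although the gates overlapped, since mouse 3 in nmSC lay below mouse 4 in mSC. The change from nmSC to mSC was 1.53-fold lower (log2 -0.62, SE 0.195, edgeR adjusted p = 0.0172). The call was lost without mSC replicate 1 (log2 -0.46, adjusted p = 0.0542), mSC replicate 3 (-0.58, 0.0518), nmSC replicate 2 (-0.56, 0.0558) or nmSC replicate 4 (-0.50, 0.0673).

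The balance of the POU factors, which does not depend on the scaling of libraries, was not shown to differ between gates. The count ratio of Pou3f1 to Pou3f2 was 1.24, 1.23, 1.29 and 1.14 in mSC and 1.69, 0.863, 1.19 and 0.668 in nmSC. The 4 mSC libraries were close to each other (SD 0.078 on the log2 scale) while the nmSC libraries ranged over both sides of 1 (SD 0.581). The mean log2 ratio differed by 0.24 (two-sided exact permutation test, p = 0.429, 0.571 after Benjamini-Hochberg adjustment over 4 ratios). The smallest p that 4 libraries against 4 can give is 0.0286.

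Of 13 other POU genes, 6 passed the filter, and Pou6f1 was higher (log2 0.65) and Pou1f1 lower (-1.24) in mSC. Both calls were fragile. That of Pou6f1 was lost with library size alone (log2 0.095, adjusted p = 0.755), and without any 1 of 7 libraries (allSC replicates 1 and 2, mSC replicates 1 and 3, nmSC replicates 2, 3 and 4). That of Pou1f1, a pituitary factor at 1.21 CPM in nmSC, was lost with the mouse as a block (adjusted p = 0.0757), with the size factors of DESeq2 (0.0591), and without any library other than allSC replicate 4 and mSC replicate 4. The remaining 4 did not pass the threshold. Per exon length, Pou3f1 and Pou3f2 were the most abundant POU genes in both gates, at 15.5 ± 6.16 and 10.03 ± 2.28 RPKM in nmSC and 11.6 ± 2.73 and 6.57 ± 1.84 RPKM in mSC (SD, n = 4). Pou2f1 came next with 1.24 RPKM in nmSC and 1.10 RPKM in mSC.

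Sox10 (chr15:79154908-79165240, minus strand, 5 exon blocks), the factor that every SC stage needs, had nearly equal means in the gates with a wide spread. It was read at 279, 326, 207 and 253 CPM in nmSC, at 124, 285, 337 and 322 CPM in mSC, and at 152, 214, 330.3 and 372 CPM in allSC. The ranges overlapped fully, with mouse 1 lowest in mSC and in allSC but not in nmSC. The log2 fold change, mSC minus nmSC, was 0.0034 (95% confidence interval -0.57 to 0.57, edgeR adjusted p = 0.993), with a sign that depended on the scaling and on single libraries. A change up to that size in either direction is therefore compatible with these libraries.

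Among the 11 other Sox genes of the SoxB, SoxC, SoxD and SoxE groups, 8 were tested, 5 were lower in mSC, 0 were higher and 3 were not called. Sox6 and Sox5, SoxD factors that can compete with Sox10, were lower by log2 -3.27 (adjusted p = 2.20e-09) and -1.53 (1.83e-07), and Sox11, a SoxC factor of progenitors, by -2.48 (2.05e-06). The median of the 8 was -0.78, beside -0.16 for all tested genes.

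Zeb2 (chr2:44983632-45117395, minus strand), a zinc finger repressor that SCs need in order to differentiate, was graded over the gates. Its nmSC libraries held 520.4, 496, 563 and 587 CPM, its allSC libraries 508, 481, 431 and 457 CPM, and its mSC libraries 470.1, 409, 358 and 297 CPM. Every nmSC library was above every mSC library, and allSC lay between the others in all 4 mice. Zeb2 was 1.41-fold lower in mSC than in nmSC (log2 -0.50, SE 0.133, edgeR adjusted p = 0.00590). Leaving out 1 library at a time gave -0.60 to -0.39 with adjusted p from 0.00118 to 0.0276. Zeb2os, an antisense gene, overlaps 3.27% of its exons.

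Genes that Zeb2 is known to hold down in SCs, mostly targets of Notch and BMP signals, were taken as a list. Of 9 such genes, 5 were lower in mSC, 0 were higher and 4 were not called. Of all tested genes 20.2% were lower in mSC. The median of the 9 was -0.89, beside -0.16 for all tested genes. The part of the Zeb2 level in these values was not tested. Ednrb, an endothelin receptor of immature SCs, fell from 2041 CPM in nmSC to 300 CPM in mSC (log2 -2.77, adjusted p = 3.37e-12), the inhibitor of differentiation Id2 by log2 -1.41 and the receptor Notch1 by -1.04. Without nmSC replicate 1 only 3 of the 9 were called.

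The relative Zeb1 was also lower in mSC (16.7, 19.0, 20.5 and 19.98 CPM, against 33.2, 31.9, 33.6 and 31.1 CPM in nmSC, log2 -0.77, SE 0.135, adjusted p = 1.40e-04). The gates of Zeb1 did not overlap. With Zeb1, the list of corepressor subunits that Zeb2 recruits had 4 of 16 genes lower and 0 higher in mSC, with 12 not called. The 4 were Zeb1 itself and subunits that include Gatad2b (-0.55) and Mbd3 (-0.52), both of the NuRD complex. Of all tested genes 20.2% were lower in mSC, and the list median was -0.11, beside -0.16 for all tested genes. The call of Gatad2b was lost without mSC replicate 3 (adjusted p = 0.0504). With library size alone 14 of the 16 were called, and 11 with library size less the top 50 genes. The within-library count ratio of Zeb2 to Zeb1 was 28.1, 21.5, 17.4 and 14.8 in mSC and 15.7, 15.6, 16.8 and 18.9 in nmSC. The mean log2 ratio differed by 0.26 (two-sided exact permutation test, p = 0.314, adjusted 0.571), with overlapping libraries.

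Yy1 (chr12:108792973-108820148, plus strand), a zinc finger factor downstream of neuregulin, was 30.1, 23.8, 25.1 and 34.0 CPM in nmSC, 33.2, 31.9, 29.0 and 36.3 CPM in mSC, and 27.1, 21.2, 28.5 and 32.7 CPM in allSC. Each mouse had more in mSC than in nmSC under TMM scaling, but the gates overlapped and the log2 fold change of 0.20 did not pass the threshold (SE 0.155, edgeR adjusted p = 0.295), and it turned to -0.36 with library size alone and to -0.16 with library size less the 50 genes with the most counts. Of 11 relatives and partners, 2 were higher in mSC (Yaf2, a Polycomb adaptor, log2 0.48, and Actr8 of the INO80 complex, 0.40) under TMM and the size factors of DESeq2, and 4 were lower, among them Yy2 (-0.66), Ino80 (-0.58) and the acetyltransferase gene Ep300 (-0.48), with 5 not called. With library size alone Yaf2 and Actr8 turned to -0.10 and -0.17, and 0 of the 11 were then higher and 8 lower. Without single libraries the call of Yaf2 was lost once (nmSC replicate 3), while Actr8 lost its call without mSC replicate 3 or 4 or nmSC replicate 1 or 2, and Yy2 without mSC replicate 3 or 4 or nmSC replicate 1 or 4. The number called fell to 3 without mSC replicate 3 or without mSC replicate 4.

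Ski (chr4:155154075-155222592, minus strand) was read at 35.7, 32.0, 35.8 and 31.4 CPM in nmSC, at 32.1, 37.0, 34.7 and 41.6 CPM in mSC, and at 35.5, 24.99, 28.2 and 28.6 CPM in allSC. The gates overlapped, and the log2 fold change, mSC minus nmSC, was 0.11 (95% confidence interval -0.18 to 0.39, edgeR adjusted p = 0.551), negative under both library size alternatives (-0.47 and -0.27). The count ratio of Ski to its relative Skil was 2.47, 2.33, 2.56 and 2.595 in mSC and 2.05, 2.42, 5.07 and 1.67 in nmSC (log2 difference -0.034, two-sided exact permutation test, p = 0.971), and without nmSC replicate 3 the difference was 0.30.

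Of the 15 tested partners of Ski and effectors of TGF-beta, 3 were higher in mSC, 5 were lower and 7 were not called, and with library size alone 1 was higher and 9 were lower. The kinase gene Hipk2 was higher under all 4 scalings, with TMM by log2 1.17 (adjusted p = 2.75e-06). Smad3, a TGF-beta effector that Ski represses, was lower by -1.35, and Jun, the driver of the immature and repair states that Ski counteracts, by -1.31 (adjusted p = 7.62e-04). Of the 10 genes of the list on dissociation, which holds Jun, 5 were also lower in mSC and 5 were not called, and their summed level was 2617 to 4972 CPM in mSC and 4046 to 5021 CPM in nmSC. The part of the dissociation in the Jun values was not tested.

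Of the NFAT pair, Nfatc4 was called between mSC and nmSC and Nfatc3 was not. The difference between the genes was tested as a ratio, given below, which did not pass the threshold after adjustment. A ratio that alone holds the smallest p possible for 4 libraries against 4 cannot pass it, so the adjusted test does not decide this. Nfatc3 (chr8:106058840-106130537, plus strand) was read at 24.7, 19.3, 14.5 and 17.9 CPM in nmSC, at 19.3, 18.3, 14.4 and 22.6 CPM in mSC, and at 15.1, 14.7, 14.8 and 14.2 CPM in allSC. Its mSC and nmSC ranges overlapped, and the log2 fold change was -0.037 (95% confidence interval -0.40 to 0.32, edgeR adjusted p = 0.875), with a sign that flipped under the size factors of DESeq2. The antisense neighbour Esrp2 overlaps 1.87% of its exons and had 12 to 39 counts a library, against 141 to 284 for Nfatc3.

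Nfatc4 (chr14:55823144-55833943, plus strand) was close to the limit of detection. It had 13, 14, 31 and 27 counts in nmSC (1.25, 1.19, 2.32 and 1.78 CPM), 11, 13, 21 and 11 counts in allSC (0.801, 0.871, 1.62 and 1.11 CPM), and 4, 3, 3 and 0 counts in mSC. The filter kept the gene through its nmSC and allSC libraries, where it was higher, so its calls against mSC are not independent of that selection. The mSC library with 4 counts stood at 0.272 CPM, with an exact Poisson 95% interval of 0.074 to 0.696 CPM that covers counting error only. For the library with 0 counts the same interval was 0 to 0.461 CPM, and the floor of 3 counts lay at 0.375 CPM. Every nmSC and allSC library was above every mSC library. The fitted log2 fold change, mSC minus nmSC, was -2.93 (SE 0.531, edgeR adjusted p = 1.97e-04), and that from allSC to mSC was -2.35 (SE 0.544, adjusted p = 0.00516). Over the libraries left out in turn, the first stayed between -3.10 and -2.64.

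Low signal in general was also lower in mSC, and its part in the Nfatc4 result was not tested. Receptor genes of smell and pheromone neurons, which SCs are not known to use, were pooled as summed CPM per kilobase of summed exon length. This mean level per receptor was 0.207 RPKM in mSC and 0.335 RPKM in nmSC, where Nfatc4 had 0.033 and 0.282 RPKM. Of the 1031 such receptors tested, 171 were lower in mSC and 0 were higher. Of the 5639 tested genes with a mean of 0.5 to 2 CPM, 22.4% were lower in mSC and 1.13% higher, with a median of -0.80, and 0.426% of them had a log2 fold change as low as that of Nfatc4 or lower.

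Within libraries, the count ratio of Nfatc3 to Nfatc4 (0.5 added to each count) was 63.2, 60.1, 53.0 and 363 in mSC, 19.1, 15.7, 6.17 and 9.87 in nmSC, and 18.0, 16.3, 8.95 and 12.3 in allSC. All 4 mSC ratios were above all others. The mSC and nmSC means differed by 2.99 on the log2 scale (exact permutation test, two-sided, p = 0.0286 and 0.114 after adjustment over the 4 ratios, so not called). No lower p is possible for 4 against 4. Since the other ratios had higher p, the adjusted value could not have passed the threshold even with separated libraries.

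Calcineurin signalling had genes on both sides. Of 25 genes, 9 were higher in mSC, 5 lower and 11 not called, with a median of 0.34. With library size alone 3 were higher and 10 lower and the median was -0.25, and with library size less the top 50 genes 5 were higher and 8 lower and it was -0.040. The calcineurin regulators Rcan1 (log2 1.42) and Rcan3 (1.00) and the calcium sensor Stim1 (0.96) were higher under all 4 scalings. The phospholipase gene Plcg1 (-2.91, adjusted p = 3.17e-09), the receptor channel gene Itpr2 (-1.03) and Nfatc1 (-1.05), another calcineurin-dependent NFAT factor, were lower. Nfatc1 was 8.56, 6.87, 7.85 and 10.4 CPM in mSC and 21.1, 17.5, 14.2 and 16.7 CPM in nmSC, with no overlap.

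**Figure D2:**
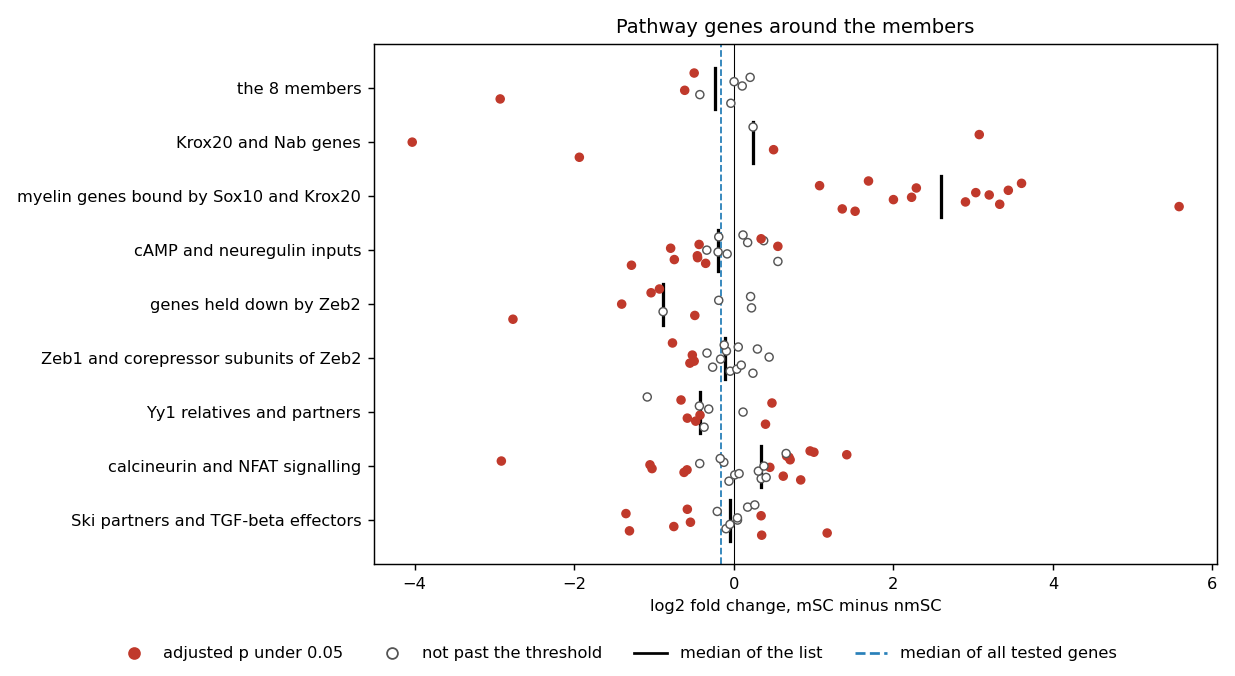
Log2 fold change, mSC minus nmSC (horizontal axis), of each tested gene of the pathway lists around the 8 genes, with filled red points for an adjusted p under 0.05, open points otherwise, black bars for the median of a list and a dashed line for the median of all tested genes (-0.16). The 14 myelin genes lie right of 0, from 1.07 to 5.58, while the lists of regulators spread over both sides.

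Egr2, the target of the POU factors and Sox10, was higher in mSC with TMM and with the size factors of DESeq2 (log2 0.56), but not called with library size less the top 50 genes (0.14, adjusted p = 0.422) and of opposite sign with library size alone (-0.061, adjusted p = 0.725). Its TMM-scaled level was 662, 727, 570.1 and 459 CPM in mSC and 429.7, 443, 427 and 414 CPM in nmSC, with no overlap (log2 0.50, SE 0.135, edgeR adjusted p = 0.00671). Of the 5 tested genes of this list, the corepressor gene Nab1 was higher too (log2 3.08, edgeR adjusted p = 9.43e-12). The relatives Egr3 (-4.03) and Egr1 (-1.94) were lower, and 1 was not called. Egr1 is also among the 5 genes of the dissociation list that were lower in mSC, and the part of the dissociation in its values was not tested. All 14 myelin genes were higher, led by Drp2 of the periaxin complex (5.58), Pmp22 (3.61) and Ncmap (3.44), both of the myelin membrane.

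Upstream of the POU factors, axonal signals reach SCs through cAMP and neuregulin. Of 17 genes of these inputs, 2 were higher in mSC, 7 lower and 8 not called (median -0.20, beside -0.16 for all tested genes). The receptor Adgrg6 (Gpr126), which raises cAMP, was lower (log2 -0.75, adjusted p = 0.00154), as were the adenylyl cyclase gene Adcy3 (-1.28) and the neuregulin receptor gene Erbb3 (-0.79). The stimulatory G protein gene Gnas (0.55) and the regulatory subunit gene Prkar1a of protein kinase A (0.34) were higher with TMM, but with library size alone they stood at -0.032 and -0.22 and 0 of the 17 were higher and 13 lower. The call of Prkar1a was also lost without mSC replicate 2 or 3 or nmSC replicate 1 or 2. Without mSC replicate 2, 5 of the 17 were called. In all, 64 of the 112 tested genes of the pathway lists were called (57.1%, beside 40.5% of all tested genes), 32 in each direction. With library size alone 19 were higher and 64 lower, and with library size less the top 50 genes 21 were higher and 52 lower. The lists were chosen with earlier results known, so nothing is drawn from the share.

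Against the mixed gate, few members moved. Between mSC and allSC, 1 of 8 was called (Nfatc4, above), where 17.6% of all tested genes were called, 8.8% lower and 8.76% higher in mSC. Zeb2 was at log2 -0.29 (SE 0.133, adjusted p = 0.142) and would have been called without mSC replicate 1 (-0.38, 0.0443). Ski was at 0.31 (0.133) and Nfatc3 at 0.34 (0.189).

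Between nmSC and allSC, edgeR called 0 of 8, where it called 10.4% of all tested genes (2.83% higher and 7.54% lower in nmSC), and DESeq2 also called 0. By edgeR, 3 genes had an unadjusted p under 0.05, all higher in nmSC: Pou3f1 (log2 0.53), Pou3f2 (0.41) and Nfatc3 (0.38), with adjusted p of 0.177, 0.232 and 0.210. These comparisons share the allSC libraries, and the allSC gate spans the cells of both others. The mean of allSC lay between those of mSC and nmSC for 4 of the 8 genes.

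**Figure D3:**
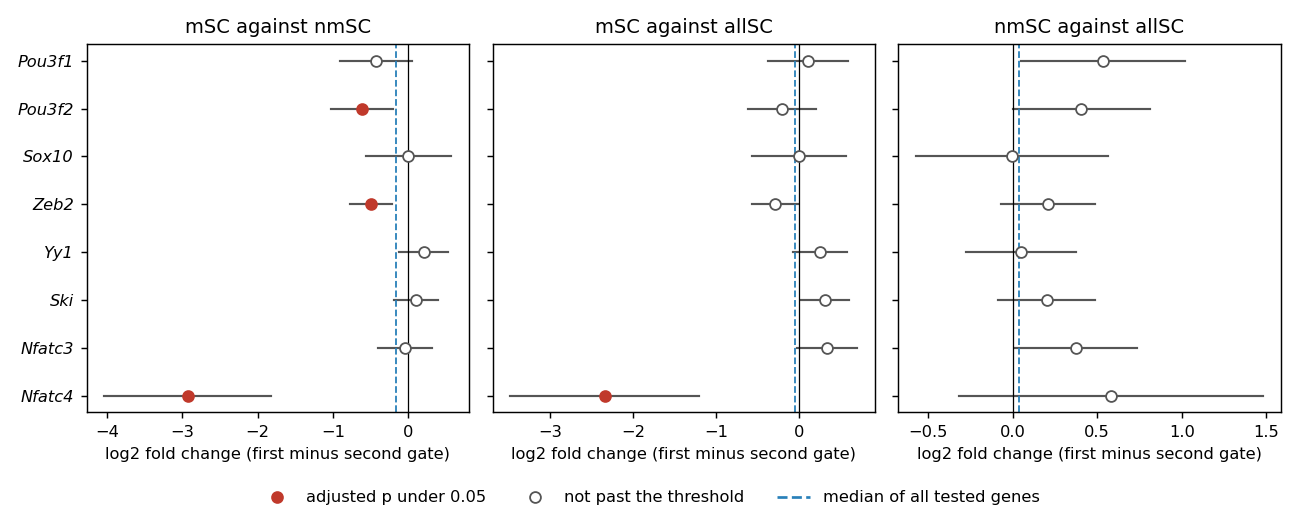
Log2 fold changes (horizontal axes, first minus second gate) of the 8 genes in the 3 comparisons of gates, with 95% confidence intervals, red points for an adjusted p under 0.05, open points otherwise and a dashed line for the median of all tested genes. Pou3f2, Zeb2 and Nfatc4 are called between mSC and nmSC, Nfatc4 alone between mSC and allSC, and 0 genes between nmSC and allSC.

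Which genes changed depended on how libraries were set against each other. With library size alone the median of all tested genes was -0.73 between mSC and nmSC, and 12.2% of the calls were higher in mSC, beside -0.16 and 50.3% with TMM. The members called then numbered 7 of 8, including Pou3f1 (log2 -1.02, edgeR adjusted p = 0.00165), where 63.8% of all tested genes were called. With library size less the top 50 genes they numbered 4 of 8, with Pou3f1 added (log2 -0.82, edgeR adjusted p = 0.00958), where 52.4% of all tested genes were called and the median was -0.53. Pou3f2, Zeb2 and Nfatc4 were lower in mSC with TMM, the size factors of DESeq2 and both library size alternatives, whereas Sox10, Yy1, Nfatc3 and Ski took signs of either kind. Taken from the median of all genes with TMM, Pou3f2 stood at -0.45, Zeb2 at -0.33 and Pou3f1 at -0.26, and Yy1 at 0.37, Ski at 0.27, Sox10 at 0.17 and Nfatc3 at 0.13.

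**Figure D4:**
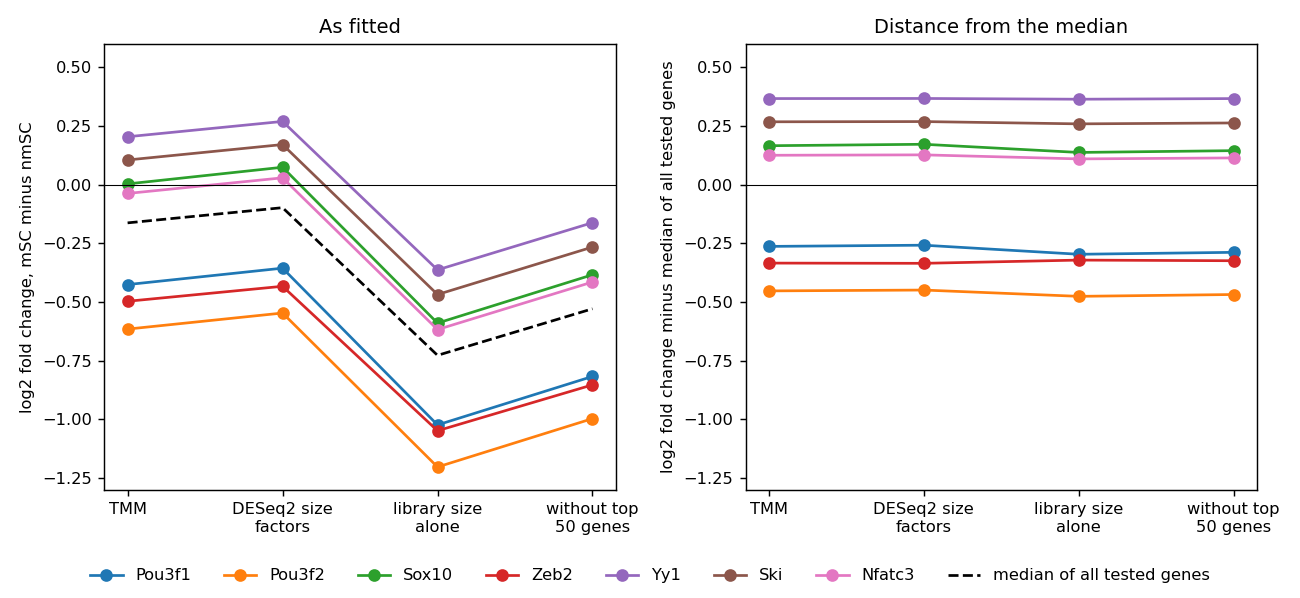
Log2 fold change, mSC minus nmSC, of 7 genes (Nfatc4, off the scale at -2.93, is left out) under 4 ways to scale libraries (horizontal axes), as fitted on the left with the median of all tested genes as a dashed line, and as the distance from that median on the right. The fitted values shift together by over 0.5, and the distances from the median hold their order.

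Per length of the union of exons, the order of the mean levels was the same in the 3 gates. Sox10 led at 87.3 ± 16.3 RPKM in nmSC and 87.6 ± 32.0 RPKM in mSC (SD, n = 4), then Zeb2 at 27.2 ± 2.05 and 19.2 ± 3.69 RPKM, Pou3f1, Pou3f2, Ski at 6.06 ± 0.422 and 6.53 ± 0.724 RPKM, Yy1 at 4.40 ± 0.730 and 5.08 ± 0.474 RPKM, Nfatc3 at 1.63 ± 0.362 and 1.59 ± 0.289 RPKM, and Nfatc4. The libraries of Pou3f1 and Pou3f2 overlapped in all 3 gates, those of Pou3f2 and Ski in mSC and allSC, and those of Ski and Yy1 in allSC, so the ranges over libraries do not part these neighbours. Within libraries, Pou3f1 was above Pou3f2 in 4 of 4 mSC, 4 of 4 allSC and 3 of 4 nmSC libraries, Pou3f2 was above Ski in 2 of 4 mSC and 3 of 4 allSC libraries, and Ski was above Yy1 in 4 of 4 allSC libraries. With the mean length of the annotated transcripts in place of the union of exons, Zeb2, which has 29 annotated transcripts, had a higher mean than Sox10 in all 3 gates (247 and 145 RPKM in nmSC, 175 and 146 RPKM in mSC, 214 and 146 RPKM in allSC), but the libraries overlapped in mSC, where Zeb2 was above Sox10 in 2 of 4, and in allSC. With that length the order of Pou3f2, Yy1 and Ski also differed between gates.

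Differences between mice were tested for the 8 genes as well. In a model with gate and mouse, 0 of 8 members had a mouse term past the edgeR threshold, where 0.0538% of all tested genes did, and Pou3f2 had means over the gates from 38.6 CPM in mouse 1 to 54.8 CPM in mouse 4. Sox10 ranged from 185 CPM in mouse 1 to 316 CPM in mouse 4. Before adjustment, the edgeR p of the mouse term was 0.040 for Pou3f2 and 0.064 for Sox10. All 8 genes had the same adjusted p of 0.997, which does not show that the mice were alike.

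Across the 12 libraries, log2(CPM + 1) of each member was set against 9404 other genes with a mean of at least 10 CPM (9405 for Nfatc4, itself below that level), as a description, since libraries share gates and mice. The genes most like Zeb2 were Nup155, Ddx51 and Frmd4a (Pearson r 0.973, 0.972 and 0.972). Nfatc4 was followed by Vldlr, Suclg2 and Loxl2 (0.972, 0.966 and 0.965). Pou3f1 ran with Rps12, Rtf1 and Snrpg (0.937, 0.935 and 0.934), and Pou3f2 with H3f3b, Hnrnpa2b1 and Marcks (0.933, 0.921 and 0.919).

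The likest genes of the other members had lower coefficients at the top. For Yy1 they were Cnot6l, Zer1 and Wdr26 (0.926, 0.893 and 0.851), and for Sox10 they were Psme3, Pnrc1 and Bag1 (0.899, 0.886 and 0.871). Those of Ski were Ptpn1, Ube2q1 and Tango2 (0.897, 0.891 and 0.83), and those of Nfatc3 Hnrnpul2, Pcf11 and Socs4 (0.891, 0.890 and 0.876). Between members, r was 0.64 for Pou3f1 with Pou3f2, 0.63 for Pou3f1 with Sox10, 0.59 for Pou3f1 with Nfatc3, 0.58 for Pou3f2 with Sox10 and 0.80 for Zeb2 with Nfatc4.

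For the 3 genes lower in mSC, the sequence before a RefSeq start of the gene is shown. RefSeq starts on GRCm38.p6 were found for 6 of the 8 genes, 10 starts in all, and the 250 bases before each were searched on both strands for the octamer ATGCAAAT of POU factors, the Sox core ACAAAG, the E2-box CACCTG of Zeb factors and the NFAT core TGGAAA. The octamer was found before 0 of the 10 starts, and the share of all promoters that hold a motif was 1.601% for the octamer, 16.5% for the Sox core, 17.2% for the E2-box and 18.6% for the NFAT core. The windows below are given 5′ to 3′ on the strand of the gene, at chr4:22488367-22488616 (minus) for Pou3f2, chr2:45117443-45117692 (minus, the most upstream of 4 starts) for Zeb2 and chr14:55824545-55824794 (plus) for Nfatc4, with a match of the NFAT core, on the other strand, in capitals.
Pou3f2: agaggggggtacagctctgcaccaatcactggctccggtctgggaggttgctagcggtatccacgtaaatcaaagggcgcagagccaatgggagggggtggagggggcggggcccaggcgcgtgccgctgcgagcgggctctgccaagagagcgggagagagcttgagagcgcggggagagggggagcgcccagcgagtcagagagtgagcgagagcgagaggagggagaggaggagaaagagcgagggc
Zeb2: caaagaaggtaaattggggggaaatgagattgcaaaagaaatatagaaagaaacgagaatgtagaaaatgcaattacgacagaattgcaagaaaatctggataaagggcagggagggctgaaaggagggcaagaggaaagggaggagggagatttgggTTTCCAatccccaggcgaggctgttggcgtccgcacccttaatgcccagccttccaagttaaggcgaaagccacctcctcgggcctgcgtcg
Nfatc4: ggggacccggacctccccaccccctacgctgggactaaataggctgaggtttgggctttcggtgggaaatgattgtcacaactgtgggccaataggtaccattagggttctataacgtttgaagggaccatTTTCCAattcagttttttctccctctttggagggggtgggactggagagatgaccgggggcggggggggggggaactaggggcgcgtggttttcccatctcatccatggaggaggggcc
The RefSeq start of Nfatc4 lies inside the gene span given above, downstream of its first annotated base, so that window is not the sequence before the whole gene. The windows printed held none of the 4 motifs for Pou3f2 and 1 NFAT core each for Zeb2 and Nfatc4. Of the other 3 Zeb2 starts, 1 had a Sox core in its window and 2 had none of the motifs. A match is a run of letters, and these data hold no measurement of binding.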

How the data were processed

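RNA of SCs from 3 sorting gates was measured in 12 Smart-Seq2 libraries, 4 per gate. The authors aligned single-end reads with STAR (version 2.6.1c and build GRCm38.p5 in the submitters' processing notes), counted them per gene with featureCounts and deposited raw counts for 25700 genes. The study's methods name a human genome build, whereas the identifiers are of mouse. How featureCounts treated strand, shared reads or overlaps is not given in the sources used here. Positions and exons came from GENCODE M21 (GRCm38), which matched 25664 identifiers.

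TMM scaling, the expression filter by gate and the quasi-likelihood test of edgeR 4.0.16 (R 4.3.3) were fitted to the 12 libraries jointly, and p-values were adjusted by Benjamini-Hochberg over 18597 genes (threshold 0.05). DESeq2 1.42.0 was an alternative. Alternatives also changed the scaling, the filter, the libraries and the mouse term, and those on the mouse term, gene length, low signal and the listed genes were added after the data were seen. Libraries of 1 number share a subject number in the labels, taken as 1 mouse, while deviations from the gate means correlated by 0.032 on average (-0.23 to 0.25) within a mouse and -0.011 between mice. Duplicate libraries were not found within gates (chi-square per degree of freedom 4.41 to 115). The study states that each gate held equal numbers of samples from female and male mice, and that they clustered in pairs of 1 sex. Sex is not in the labels and was not used, so its part in the spread between mice was not tested. The result of 1 listed gene past the threshold is not reported here.

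Members and lists were chosen with earlier results of these data known. Genes are named as all members, up to 3 list genes per direction past the threshold, Egr2, Zeb1 and Skil, and the 3 genes most like each member by Pearson correlation. Pdgfrb, Itgb4, Msln, Pou2f1, Aif1, Csf1r, Pmel, Kdr, Gm2164, Zeb2os and Esrp2 were named after their values were seen. Counting intervals and the floor of 3 counts (0.198 to 0.375 CPM a library) cover counting error only. Tested on simulated counts of the mSC and nmSC comparison (5 draws, 200 changed genes, 17888.8 genes tested on average), edgeR recovered 54.4% of 2-fold and 81.4% of 4-fold changes with 5.67% false calls, and DESeq2 60.2% and 82.8% with 12.2%. The draws changed few genes, equally up and down. They did not hold the difference in composition between the gates, so the rates may not carry over to these data.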

Additional observations from a re-analysis of the deposited data

Results flagged for a closer look

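Over the 36 groups of 4 libraries that were examined (the 8 genes and 4 ratios in 3 gates), 2 had a library far from the others, both in mSC replicate 4, and chance flags about 1 in 20. The CPM of Nfatc4 in that library, with 0 counts, was below the other mSC libraries by a gap of 0.858 of the whole range of the gate. The log2 ratio of Nfatc3 to Nfatc4 in the same library, 8.50, was above the others by a gap of 0.908 of the range, and it rests on the same count of 0. Without this library, the log2 fold change of Nfatc4 between mSC and nmSC was -2.64 (edgeR adjusted p = 3.62e-04).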

How the results depend on the processing

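Pou3f2, Zeb2 and Nfatc4 stayed lower in mSC than in nmSC under every alternative run, and the calls of Zeb2 and Nfatc4 were never lost. With library size alone the members called were 7 between mSC and nmSC, 3 between mSC and allSC and 5 between nmSC and allSC, and with library size less the 50 genes with the most counts 4 between mSC and nmSC and 2 between mSC and allSC, where the medians of all genes shift by construction. Leaving out 1 library at a time gave 2 to 4, 1 to 2 (2 without mSC replicate 1) and 0 to 0 called members in these comparisons, and 52 to 63 called genes of the pathway lists. With the mouse as a replicate block (pairing by mouse), 3, 1 and 0 members were called, the same numbers as without it, and Sox10 turned sign at -0.12 (mSC against nmSC), -0.0091 (mSC against allSC) and 0.11 (nmSC against allSC). Among the listed genes that the report names, the block ended only the call of Pou1f1.

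Signs also turned with library size alone for Sox10 (-0.59), Yy1 (-0.36) and Ski (-0.47) between mSC and nmSC, for Pou3f1 (-0.21), Sox10 (-0.32), Yy1 (-0.055) and Ski (-0.0066) between mSC and allSC, and for Sox10 (0.27) between nmSC and allSC. With library size less the top 50 genes they were Sox10 (-0.38), Yy1 (-0.16) and Ski (-0.27), then Pou3f1 (-0.11) and Sox10 (-0.22), and Sox10 (0.16). Nfatc3 turned to 0.029 between mSC and nmSC with the size factors and with the Wald test of DESeq2, and Sox10 to -0.051 (mSC against allSC) and 0.029 (nmSC against allSC) in fits of the compared gates alone. In the fits that left out 1 library, Sox10 ranged from -0.11 to 0.26, from -0.19 to 0.26 and from -0.20 to 0.20 in the 3 comparisons, Nfatc3 from -0.14 to 0.11 (mSC against nmSC), Pou3f1 from -0.020 to 0.27 (mSC against allSC), Yy1 from -0.061 to 0.14 (nmSC against allSC) and the log2 ratio of Ski to Skil from -0.24 to 0.30. None of the members with turned signs was past the threshold before, and the cause of the turns within single libraries was not tested. Counts at or under 3, as for Nfatc4 in mSC, are the limit of depth here.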
